A study of Mus musculus with 6 samples.

Results

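Tetraspanins are small proteins that cross the cell membrane several times and carry a large loop outside the cell. They hold integrins, immune receptors and proteases together in the membrane. The genes described here are Tspan8, Tspan33, Tspan32, Cd9, Cd37, Cd53, Cd63, Cd81, Cd82 and Cd151, 10 genes of this family. Tspan8 was chosen by its higher signal in garlic-fed spleens in these same data, so its difference between the diets is described without a test. The other genes were taken as members of the family, but with earlier results of these data known. Their choice, that of Tspan33 included, is thus not independent of these data. In the array annotation 25 probe sets carry the name of 1 of these genes alone, out of 45037 probe sets in all. They stand for 9 of the 10 genes, and Cd63 was not analysed here. All 9 genes had at least 1 probe set bright enough to be tested, as 12262 of 18193 named genes had.

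The arrays were made from whole spleens of male C57BL/6J mice, which were 8 weeks old when feeding began and were killed after 15 weeks. Control mice (n = 3) ate a casein and cornstarch diet with 4% cellulose, and garlic-fed mice (n = 3) ate the same diet with 4% lyophilized raw garlic powder in its place. The study asked with these arrays how garlic-fed mice keep up their red blood cells (RBC) although these cells turn over faster. Each mouse was measured on 1 Affymetrix array, where a probe set is a group of short oligonucleotides that read 1 mRNA and its signal is the brightness of the bound RNA. The suffix _a_at marks a probe set that reads several transcripts of 1 gene, while _s_at and _x_at mark probe sets with probes that can also bind other mRNAs. Signals of different probe sets cannot be set against each other as mRNA levels, so every comparison is made within a probe set.

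In the mouse, Tspan33 is known from the precursors of red blood cells, where it was first described under the name penumbra, and it also escorts the protease ADAM10 to the cell surface. Tspan8 is best known from gut and pancreatic epithelium. Tspan32 is found on blood cells and platelets, Cd9 on platelets and some B cells, Cd37 and Cd53 on lymphocytes and other white blood cells, Cd81 beside the B cell receptor complex, Cd82 on macrophages and lymphocytes, and Cd151 beside laminin-binding integrins.

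The promoter windows of Tspan8 and Tspan33 are shown because these 2 genes differed between the diets. Each window runs from 250 bases before to 50 bases after the start of the gene in RefSeq, on the build GRCm38.p6, 5′ to 3′ on the strand of the gene. Tspan8 lies at chr10:115817034-115817333 on the plus strand and Tspan33 at chr6:29693964-29694263 on the plus strand. Capitals mark matches, on either strand, to 3 motifs of transcription factors of red cell precursors.
Tspan8: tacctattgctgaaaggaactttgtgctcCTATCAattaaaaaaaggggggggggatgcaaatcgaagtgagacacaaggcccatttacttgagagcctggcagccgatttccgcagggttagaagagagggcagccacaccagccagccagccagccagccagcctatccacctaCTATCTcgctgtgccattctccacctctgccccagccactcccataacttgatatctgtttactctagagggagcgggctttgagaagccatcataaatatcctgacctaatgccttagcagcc
Tspan33: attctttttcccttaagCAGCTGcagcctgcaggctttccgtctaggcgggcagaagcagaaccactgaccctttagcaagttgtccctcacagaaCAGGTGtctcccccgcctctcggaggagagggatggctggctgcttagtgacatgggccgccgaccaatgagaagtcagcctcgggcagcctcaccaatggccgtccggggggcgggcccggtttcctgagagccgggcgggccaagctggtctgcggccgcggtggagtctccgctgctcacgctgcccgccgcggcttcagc
The GATA motif was spelled AGATA or TGATA followed by A or G, the motif bound by Klf1 as CACCC, and the E-box bound by Tal1 with its partners as CANNTG. The Tspan8 window held 2 GATA matches, which begin 221 and 74 bases before the start, and no match to the other motifs. The Tspan33 window held 2 E-box matches, which begin 233 and 154 bases before the start, and none to the others. The printed matches do not overlap. Of all 32851 promoter windows in the table, 29.8% held a GATA match, 57.5% a CACCC match and 72.3% an E-box match. A match describes the letters and not the binding of a factor. All 10 genes had a window in the table. Among the genes other than Tspan8 and Tspan33, GATA matches were found in Tspan32 (2), Cd37 (1) and Cd53 (1). E-box matches were found in each of the others but Cd63, and CACCC matches in Tspan32, Cd9, Cd37, Cd81, Cd82 and Cd151.

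Tspan33 was the only gene of the 8 tested, leaving Tspan8 aside, that was higher in garlic-fed spleens past the adjusted threshold, and none was lower. On its brightest probe set, an _x_at one, the signal was 2955.7, 3324.1 and 4011 (control) and 5887.1, 6241.4 and 7375.8 (garlic-fed). The lowest garlic-fed mouse was well above the highest control mouse. The means were 3430 ± 536 (SD, n = 3) and 6501 ± 778 (SD, n = 3), which is 1.90-fold (0.93 on the log2 scale with a standard error, SE, of 0.13, limma adjusted p = 0.0240). For comparison, 0.343% of all genes tested were higher at an adjusted p under 0.05 and 0.00816% were lower. In whole spleen more cells that carry a gene and more of its RNA per cell cannot be told apart. The call did not hold in 7 of 18 alternatives, among them the fits without control mouse 1 (0.83 on the log2 scale, limma adjusted p = 0.124) and without control mouse 2 (0.91, limma adjusted p = 0.130), the fits with no filter on dim probe sets (limma adjusted p = 0.301) and no trend of variance (0.265), and the methods' test (0.396 on log2 signals).

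The other probe sets of Tspan33 gave differences of similar size. On the second brightest, an _a_at probe set, the signal was 1222.6, 1306.2 and 1327.8 (control) and 2478.1, 2670.9 and 3241.8 (garlic-fed), and the log2 fold change was 1.11 (SE 0.12, limma adjusted p = 0.0123). On the next one it was 585.6, 735.1 and 780.9 (control) and 1371.6, 1396.1 and 1792.3 (garlic-fed) (log2 fold change 1.12, limma adjusted p = 0.0237). Neither of them showed an overlap between the groups. The dimmest one read 479.8, 583.2 and 572.3 (control) and 831.2, 966.2 and 1124.9 (garlic-fed), and with a log2 fold change of 0.83 (limma adjusted p = 0.0607) it did not pass. The 4 probe sets read the same RNA samples and are not replicates.

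Tspan8 is a description only, since its rise was the reason it was taken. Its brightest probe set gave 372.1, 478.7 and 636.1 (control) and 1008.5, 1221.1 and 1496.4 (garlic-fed). The groups do not overlap, and the means were 496 ± 133 (SD, n = 3) and 1242 ± 245 (SD, n = 3), with a log2 fold change of 1.34. Its 4 other probe sets were dimmer. On one of them the signal was 47.8, 90.7 and 82.4 (control) and 220.9, 149.2 and 173.9 (garlic-fed) (log2 fold change 1.33), and on another it was 51.9, 64.8 and 76.2 against 92.9, 148.5 and 235.2 (log2 fold change 1.22). A smaller difference was read by the second brightest probe set, with 134.2, 115.3 and 160.6 (control) and 161.3, 161.4 and 217.6 (garlic-fed) (log2 fold change 0.40). An _s_at probe set was left out as too dim, with signals of 17.8, 41.3 and 21.6 (control) and 47.8, 50.1 and 62.9 (garlic-fed). In all 5 no control mouse reached the level of a garlic-fed mouse, although in the second brightest the highest control mouse came within 1 unit of the lowest garlic-fed mouse.

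**Figure D1:**
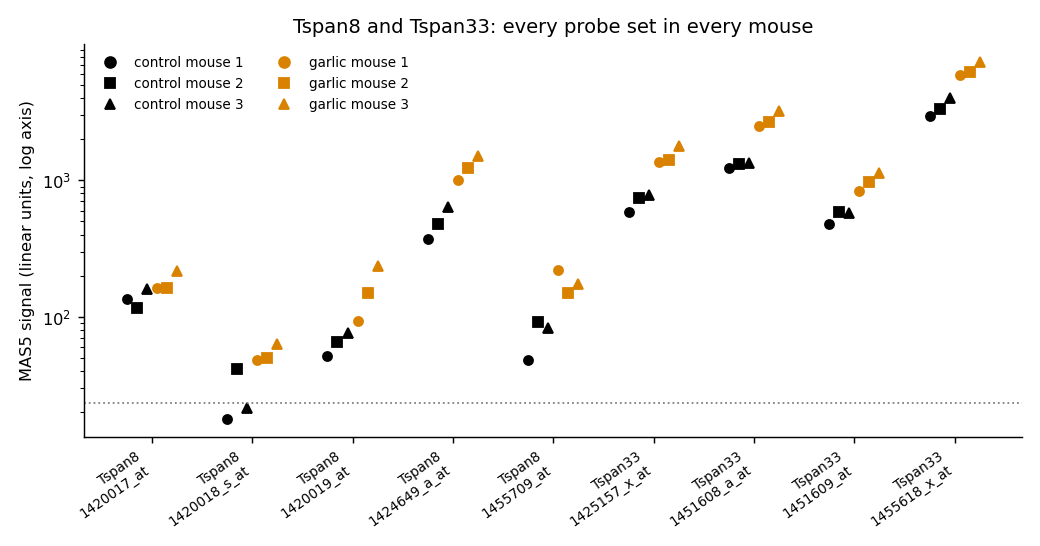
Signal of the 5 probe sets of Tspan8 and the 4 of Tspan33 in each mouse (linear MAS5 units on a log axis). Black symbols are control mice, orange symbols garlic-fed mice, and the dotted line is the floor of 23.5 used before log2 was taken. In each of the 9 probe sets the orange symbols lie above the black ones, by the least in the second brightest of Tspan8.

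The 7 other genes that could be tested did not pass the test on their brightest probe sets, and in each of them the groups overlap. Tspan32 had a signal of 1358.7, 1055 and 1105.3 (control) and 1117.2, 989.7 and 1000.7 (garlic-fed), which is -0.17 on the log2 scale (SE 0.12, limma adjusted p = 0.675). Control mouse 1 was the highest of the 6. Cd9 read 2897.4, 3495.4 and 3458.6 (control) and 3393.4, 2794.2 and 2980.6 (garlic-fed), with a log2 fold change of -0.10 (limma adjusted p = 0.796). The ends of both ranges were garlic-fed mouse 2 below and control mouse 2 above. The 95% confidence interval of the log2 fold change ran from -0.45 to 0.11 for Tspan32 and from -0.35 to 0.14 for Cd9.

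Of the tetraspanins of white blood cells, Cd37 read 5467.6, 6321.5 and 6339.1 (control) and 6252.3, 5829.4 and 5068.9 (garlic-fed) (log2 fold change -0.08, 95% interval -0.31 to 0.14, limma adjusted p = 0.832). Garlic-fed mouse 3 was the lowest of the 6. Cd53 read 10605.9, 10249.8 and 10026.4 (control) and 8947.6, 9822.1 and 10512.1 (garlic-fed) (log2 fold change -0.08, 95% interval -0.26 to 0.10, limma adjusted p = 0.781). A second, dim probe set of Cd53 gave 347.2, 386.7 and 336.6 (control) and 395, 471.2 and 517.1 (garlic-fed) (log2 fold change 0.36, limma adjusted p = 0.413), with the opposite sign and no overlap between the groups. Cd81 had the narrowest interval of the 8 genes tested. It read 8017.6, 8583.4 and 8284.2 (control) and 8267.5, 8319.5 and 8699.5 (garlic-fed), which is 0.02 on the log2 scale with a 95% interval of -0.13 to 0.18 (limma adjusted p = 0.941). Cd82 read 5228.3, 6033.4 and 6211.1 against 6199.1, 5566.6 and 7266.2, with a log2 fold change of 0.12 (95% interval -0.13 to 0.36, limma adjusted p = 0.765). Garlic-fed mouse 3 was the highest of the 6 in Cd82.

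Cd151 was read by 6 probe sets, of which 5 were tested, and their log2 fold changes lay between -0.18 and 0.06. The brightest gave 1307.3, 1534.2 and 1467.5 (control) and 1487.5, 1405 and 1353.9 (garlic-fed) (log2 fold change -0.02, 95% interval -0.25 to 0.21, limma adjusted p = 0.969). The second probe sets of Tspan32, Cd37 and Cd82, with log2 fold changes of -0.02, -0.11 and -0.12, did not pass either. On the brightest probe set of each gene, Tspan33 alone of the 8 was higher at an unadjusted p under 0.05 and none was lower. Of all genes tested 6.89% were higher and 6.24% lower. The dimmer probe set of Cd53 was also higher at this threshold. Groups without overlap were likewise found in 1 of the 8, against 9.13% of all genes with every garlic-fed mouse above every control mouse and 10.7% with every one below. The median log2 fold change of the 8 genes was -0.05, and that of all genes tested was -0.03.

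**Figure D2:**
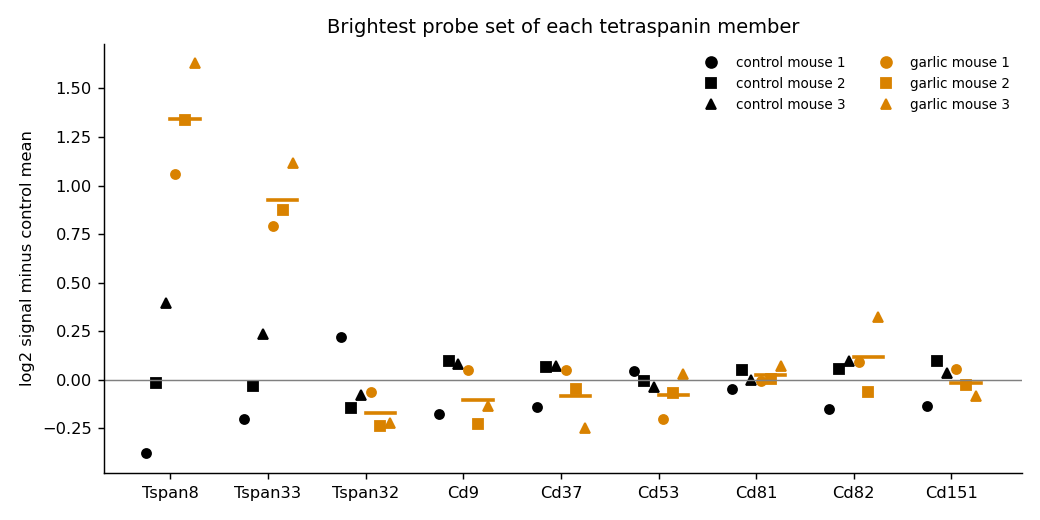
Log2 signal of the brightest probe set of each of the 9 genes, minus the mean of the control mice, with 1 symbol per mouse (black, control; orange, garlic-fed) and an orange bar at the garlic-fed mean. The orange symbols of Tspan8 and Tspan33 lie above all black ones, and the symbols of the 7 other genes intermingle.

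As a description, the log2 ratio of Tspan33 to each of the 7 genes was higher in garlic-fed mice by 0.81 (Cd82) to 1.10 (Tspan32), and for each of the 7 genes all garlic-fed mice lay above all control mice. An exact permutation test over 20 groupings of the mice gave p = 0.1 for each ratio, the smallest p possible with 3 mice per diet. Since Tspan33 was set against genes already seen not to pass, no conclusion is drawn from these ratios.

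The rest of the tetraspanin family was taken as a list of 21 further genes, of which 20 had a probe set and 17 were tested. On their brightest probe sets none passed the adjusted threshold in either direction by limma, and before adjustment (p under 0.05) 1 was higher and 0 were lower. This gene was Upk1b, which encodes a uroplakin of the bladder lining. Its brightest probe set read 45.5, 120.7 and 40.2 (control) and 167.2, 205.3 and 128.1 (garlic-fed) (log2 fold change 1.44, SE 0.41, limma adjusted p = 0.215). The groups do not overlap, but the signals are dim and the probe set is of the _x_at kind. Its mean log2 signal in the control mice, 5.92, is under the filter of 6.08, so that it was tested, and counted as the brightest, only through the garlic-fed mice (7.36). The other tested probe set of Upk1b, brighter in the control mice (6.30), had a log2 fold change of 0.14 (limma adjusted p = 0.917). With the filter at the 60th percentile, among other alternatives, the count of 1 became 0. It became 2 with each array centred on its median and without control mouse 2. With all probe sets per gene averaged, 1 gene was higher and 1 lower. The count thus lends no support to a change in the family. In 2 of the 17 genes every garlic-fed mouse lay below the control mice, near the 10.7% of all genes. They were Tspan3 and Tspan6, at log2 fold changes of -0.15 and -0.22 (limma adjusted p = 0.603 and 0.657). The median of the 17 genes was -0.09.

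Tspan5, Tspan10, Tspan14, Tspan15 and Tspan17 belong with Tspan33 to the group of tetraspanins that escort ADAM10. Their log2 fold changes were -0.07, -0.19, -0.01, -0.02 and -0.27 (adjusted p from 0.638 to 0.988 from limma), and none of them passed the test. Adam10 itself had 0.09 on the log2 scale (limma adjusted p = 0.790).

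**Figure D3:**
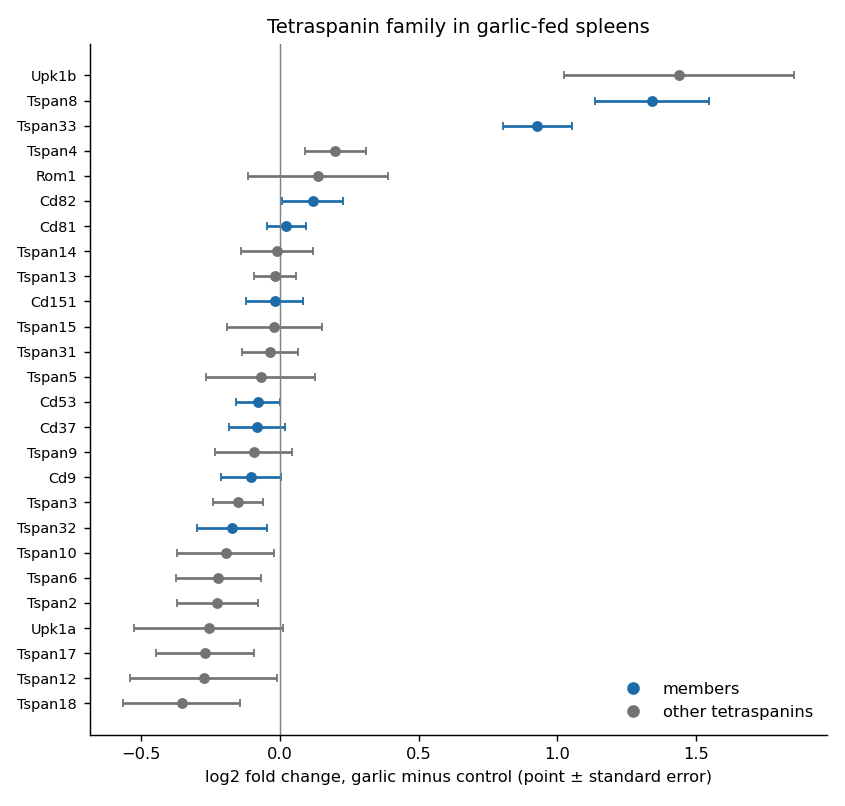
Log2 fold change (garlic-fed minus control, 3 mice each) of the brightest probe set of the 26 tetraspanin genes tested, with bars of 1 SE from limma. Upk1b, Tspan8 and Tspan33 stand at 1.44, 1.34 and 0.93, and the others lie between -0.35 and 0.20. Tspan8 is drawn as a description.

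Proteins that tetraspanins bind were taken as a second list, with integrins, ADAM proteases, immune receptors and adaptor proteins. Of its 25 genes 24 were tested, and on their brightest probe sets none passed the adjusted threshold by limma. Before adjustment (p under 0.05) 1 was higher and 1 was lower, which is no more than the 6.89% and 6.24% of all genes. The lower one was Clec7a, which encodes dectin-1, the receptor for fungal glucans that Cd37 binds. It read 2280.8, 2642.2 and 2132.8 (control) and 1493.8, 1725.3 and 1742.9 (garlic-fed), without overlap (log2 fold change -0.51, SE 0.11, limma adjusted p = 0.119). The higher one was Pdcd6ip, which encodes the adaptor ALIX of exosome formation (log2 fold change 0.30, limma adjusted p = 0.309). Dimmer probe sets of Hbegf and Cd4 were lower before adjustment too (log2 fold changes -0.56 and -0.60, limma adjusted p = 0.388 and 0.342). The median of the 24 genes was -0.03.

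Markers of red cell precursors were higher in the same spleens. Of 20 such genes listed 17 had a probe set and 16 were tested, of which 6 rose past the adjusted threshold by limma and none fell, with a median log2 fold change of 1.06. For comparison, 0.343% of all genes tested rose past this threshold. Several of these genes are named by the study on these same samples, so their direction is not independent evidence. Summed, their signal ranged from 45228 to 59423 among the controls and from 78076 to 111019 with garlic. None of the listed genes with a probe set was at 0, but Hba-a1 was too dim to be tested. It read 58.2, 22.3 and 100.1 (control) and 63.3, 8.7 and 29.7 (garlic-fed), with 2 of these signals under the floor. Its mean log2 signal was 5.69 in control and 5.14 in garlic-fed mice, lower with garlic, and the groups overlap. Probe sets named for several genes were not used, and signals this near the floor of 23.5 cannot give the level or direction of Hba-a1. Set against the mean of the controls, the 16 genes had a median of -0.29, 0.07 and 0.24 on the log2 scale with cellulose and 0.82, 0.99 and 1.48 with garlic. Tspan33 stood at -0.20, -0.03 and 0.24 and at 0.79, 0.88 and 1.12, and Tspan8 at -0.38, -0.02 and 0.39 and at 1.06, 1.34 and 1.63. On their brightest probe sets Tspan33 and Tspan8 put the 6 mice in the same order as the summed signal of the erythroid list, but the dimmest probe set of Tspan33 and 3 of the 5 of Tspan8 did not. The order is not particular to the erythroid list. Granulocyte precursor genes summed to 750.5, 1086.5 and 1180.1 (control) and 1742.8, 1827.3 and 1900.8 (garlic-fed), which is the same order. It was found in 155 of the 12262 genes tested (1.26%), Tspan8 and Tspan33 among them. The difference between Tspan33 and the erythroid median ran from -0.10 to 0.09 among the controls and from -0.36 to -0.03 with garlic, and that between Tspan8 and this median was -0.09 to 0.15 and 0.15 to 0.34. The part of red cell precursors in the signals of Tspan33 and Tspan8 was not tested.

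Genes of tissues that lie beside the spleen varied widely between mice. Pancreatic genes (11 of 14 with a probe set) had a summed signal of 130822, 17138 and 61740 (control) and 2126, 33857 and 2299 (garlic-fed), with none of the 10 tested past the adjusted threshold and all 10 lower before adjustment (p under 0.05). Fat tissue genes (7 of 9) summed to 4320, 6458 and 5120 against 10182, 11862 and 4092, and none of the 5 tested passed, with 1 higher before adjustment. For comparison, 6.89% of all genes tested were higher and 6.24% lower before adjustment. The part of these tissues in the signal of Tspan8 was not tested. In the same order of mice, the brightest probe set of Tspan8 read 372.1, 478.7 and 636.1 (control) and 1008.5, 1221.1 and 1496.4 (garlic-fed). Without control mouse 1 and garlic-fed mouse 2, the arrays of each diet with the highest pancreatic sum, the log2 fold change was 1.15 for Tspan8 and 0.85 for Tspan33 (limma adjusted p = 0.136). The arrays left in that fit still had pancreatic sums of 17138 and 61740 (control) and 2126 and 2299 (garlic-fed), so it did not remove the difference in pancreatic signal. Epithelial genes, among them Epcam, which encodes an adhesion protein that Tspan8 binds, had 4 of 8 tested, and none passed in either direction (median -0.24).

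Of the cell types that carry the other tetraspanins, B cells (11 of 12 genes tested) had a median log2 fold change of -0.16 with none past the adjusted threshold, while 5 genes were lower and 0 higher before adjustment (p under 0.05). Summed, they ranged from 97568 to 110658 among the controls and from 92240 to 101485 with garlic. The B cell genes Ighm and Ms4a1 and the red pulp macrophage genes Csf1r and Vcam1 were bright on every array. The medians were 0.00 for megakaryocytes and platelets (10 genes), -0.19 for T cells (9), -0.04 for natural killer cells (7), -0.20 for dendritic cells (7), -0.23 for plasma cells (8), 0.13 for red pulp macrophages (12), 0.30 for neutrophils (10) and 0.92 for granulocyte precursors (5). They were 0.06 for mast cells and basophils (2) and -0.04 for endothelium and stroma (9), and no gene of these lists passed the adjusted threshold. Before adjustment (p under 0.05), 3 of 5 granulocyte precursor genes, 5 of 12 red pulp macrophage genes and 2 of 10 neutrophil genes were higher, while 3 of 8 plasma cell genes and 1 of 7 dendritic cell genes were lower. Beside these counts and that of the B cells, 6.89% of all genes tested were higher and 6.24% lower before adjustment. For megakaryocytes and platelets, T cells, natural killer cells, mast cells and basophils, and endothelium and stroma the count was 0 both ways. The share of these cells in the signals of Cd9, Cd37, Cd53, Cd81 and Cd82 was not tested.

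**Figure D4:**
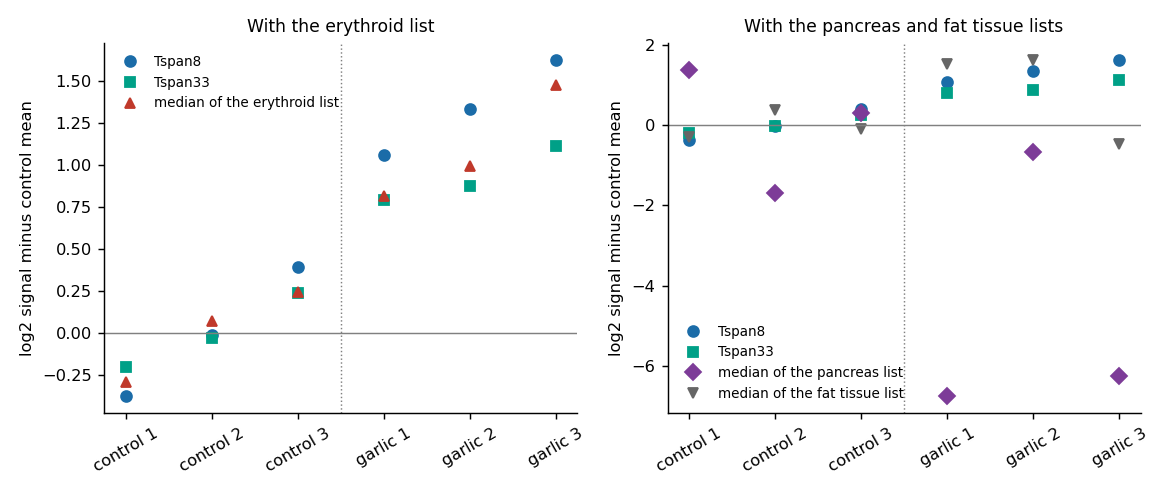
Log2 signal minus the control mean in each of the 6 mice for Tspan8 and Tspan33, beside the median of 16 erythroid genes (left) and the medians of 10 pancreatic and 5 fat tissue genes (right). The erythroid median lies above 0.8 in all garlic-fed mice, as does Tspan8, with Tspan33 at 0.79 to 1.12, while the pancreatic and fat medians vary between mice of the same diet.

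The genes most like Tspan8 and Tspan33 were found from the log2 signals of the 6 mice, centred on each gene's own mean, as those with the smallest root mean square difference among 12261 genes. For Tspan8 they were Pdzk1ip1, Nfe2, Add2, Rhd and Kel, with differences of 0.085 to 0.11 on the log2 scale. Nfe2 encodes a transcription factor of erythroid cells and megakaryocytes, Add2 an adducin of the RBC membrane skeleton, and Rhd and Kel encode blood group proteins, and Nfe2, Rhd and Kel are also on the erythroid list above. For Tspan33 they were Asb1, Ubac1, Ccnf, Xpo7 and Dmtn, with differences of 0.064 to 0.071. Ccnf encodes cyclin F and Dmtn dematin of the RBC membrane skeleton. Pdzk1ip1, Asb1, Ubac1 and Xpo7 were not on the erythroid list. Tspan33 itself ranked 39 among the genes most like Tspan8, with a difference of 0.24, and Tspan8 ranked 205 among those most like Tspan33. The likeness rests on 6 mice of 2 diets and describes these spleens only. Tspan8 was chosen for its rise in these mice, so genes that rose by a similar amount had to rank near it. The log2 fold changes of the genes named for Tspan8 ran from 1.17 to 1.40, against 1.34 for Tspan8. Which cells carry Tspan8 was not tested.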

How the data were processed

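Total RNA of 3 control and 3 garlic-fed mouse spleens was hybridized to 1 Affymetrix array each, grouped by diet as the sample titles give it. The deposited values are intensity values, linear MAS5 signals that the authors computed; the 2% trimmed mean of each array is 500, read from the values, and the MAS5 version is not given in the sources used here. The authors compared the diets in GeneSpring by a one-way test.

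The 64 control probe sets were left out. Gene names came from the annotation of the array (34945 with 1 gene, 932 with several, 9160 with none); 34741 were found in the reference table by gene ID, and no symbol needed an update. A floor of 23.5, the 20th percentile of all signals, was applied, log2 was taken, and the 27022 probe sets with a mean above the 40th percentile (6.08) were tested with limma 3.58.1 in R 4.3.3 (lmFit, eBayes with a trend), garlic minus control, with Benjamini-Hochberg adjustment over all of them. The study's threshold is an unadjusted p under 0.05 and a fold above 1.8. A gene is represented by its brightest probe set. Plots were made in Python 3.11.15 (matplotlib 3.10.9). The fit was tested on simulated data.

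Members and lists were chosen with earlier results of these data known. All members are named. Of the other tetraspanins and of the binding partners, those that passed after adjustment are named or, where fewer than 4 did, up to 4 with an unadjusted p under 0.05 and no overlap; Adam10, the tetraspanins that escort it, Tspan3 and Tspan6 were named in addition, after their values were seen. Of cell type lists the 2 brightest genes were taken, and named where a result is set beside them. The 5 genes most like Tspan8 and Tspan33 are named. The number of arrays limits the precision. Alternatives were other normalizations, floors and filters, no trend, the methods' test, a replicate block, leaving out arrays, and averaging all probe sets per gene.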

Additional observations from a re-analysis of the deposited data

How the results depend on the processing

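Tspan33 kept its direction under all 18 alternatives, with log2 fold changes of 0.83 to 1.05 and adjusted p from 0.00166 to 0.409, and so did Tspan8, with 1.07 (the mean of its probe sets) to 1.54. Since Tspan8 was taken for its rise in these same mice, its kept direction here lends no support to that rise. The count of higher genes other than Tspan8, 1 with Tspan33 alone, became 0 in 7 alternatives. These were no filter (Tspan33 log2 fold change 0.93, adjusted p = 0.301 from limma), no trend of variance (0.93, adjusted p = 0.265), the methods' test on log2 signals (0.93, adjusted p = 0.396) and on linear signals (0.92, adjusted p = 0.409), without control mouse 1 (0.83, adjusted p = 0.124), without control mouse 2 (0.91, adjusted p = 0.130), and without the 2 arrays of highest pancreatic sum, 1 per diet (0.85, adjusted p = 0.136). The last 3 use fewer arrays, and the last of them leaves out 2. The fits without control mouse 3 or without garlic-fed mouse 1, 2 or 3, which leave out 1 array each, kept the call. Their adjusted p from limma was 0.0283, 0.0268, 0.0439 and 0.0315. Why the call was lost in the 7 alternatives was not tested. Leaving out single arrays gave counts of 0 to 1 and log2 fold changes of 0.83 to 1.05 for Tspan33 and 1.15 to 1.54 for Tspan8. At the study's own threshold, without adjustment, the methods' test gave 1 higher gene among these 8 and 0 lower, on log2 and on linear signals, and 0 (log2) and 1 (linear) higher among the other tetraspanins. At an unadjusted p under 0.05, Tspan33 was higher in all 18 alternatives. After adjustment no gene was lower and no other tetraspanin passed in any of them.

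Values near 0 changed sign. Cd37 was 0.0020 without garlic-fed mouse 3, Cd81 was -0.0010 without control mouse 1, and Cd151 was 0.059 with each array centred on its median, 0.030 without control mouse 2 and 0.013 without garlic-fed mouse 3. With all probe sets per gene averaged Cd53 was 0.14 and Cd82 was -0.0024. None of these values passed a test. Leaving out single arrays moved Cd9 between -0.19 and -0.04, Tspan32 between -0.24 and -0.06, Cd37 between -0.15 and 0.0020, Cd53 between -0.13 and -0.02, Cd81 between -0.0010 and 0.048, Cd82 between 0.02 and 0.21 and Cd151 between -0.085 and 0.030.

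Mice with the same replicate number had correlations of deviations of 0.00064, -0.18 and 0.078, and mice with unlike numbers had values from -0.15 to 0.16. With 3 mice per diet these values cannot decide whether the numbers pair the samples. The main fit treats the samples as unpaired. With the replicate block, Tspan33 had an adjusted p of 0.00166 and the count of higher genes stayed at 1. Of the 4 probe sets of Tspan33, 3 passed in 10 of 17 alternatives each and the dimmest in 4.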
